A study of Mus musculus with 46 samples.

Results

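The effect of the p150 genotype on gene expression was compared between liver and kidney of the same mice. The study sequenced total RNA of liver, kidney and cerebellum from 16 C57BL/6 mice at postnatal day 23, all carrying P195A, an amino acid change in the Z-nucleic-acid-binding domain of the RNA-editing enzyme ADAR1. The genotype groups are labelled P195A_p150neg and P195A_p150pos. As background, the p150-negative animals pair P195A with an allele that makes no p150, so that P195A is on their only p150; the labels used here do not describe the second allele. The comparison used 26 of the 46 libraries, from 15 animals: 7 livers and 5 kidneys of p150-negative and 7 livers and 7 kidneys of p150-positive animals. Both tissues were present for 5 p150-negative and 6 p150-positive animals, whose 22 libraries entered the test of the difference between tissues. This test compares each animal's liver with its own kidney. The labels give the animals as separate mice. Members were chosen by tissue and genotype labels, and 4 libraries labelled liver or kidney were left out because they held RNA of other organs.

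ADAR1 converts adenosine to inosine in double-stranded RNA. Its interferon-inducible isoform, p150, carries the Z-nucleic-acid-binding domain and keeps the cell's own RNA from setting off the cytosolic sensors of viral RNA, whose signal ends in interferon and the interferon-stimulated genes. Liver makes most plasma proteins, much of the body's cholesterol and the acute phase proteins of inflammation, while kidney tubules reabsorb solutes from the filtrate. Both organs synthesize sterols and break down amino acids, and both respond to interferon.

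The 26 libraries held from 269213 to 4875907 counts. The shallowest was the kidney of p150-negative animal 3 with 269213, followed by the liver of p150-negative animal 16 with 532311. Levels are CPM, counts scaled to a common library total, and effects are log2 fold changes of p150-negative over p150-positive animals. Liver identity genes (Alb, Apoa1, Serpina1c, Cps1) summed to at least 34640 CPM in these livers and to at most 532 CPM in these kidneys. Kidney identity genes (Umod, Slc34a1, Kap, Aqp2) summed to at least 9057 CPM in kidneys and to at most 9.63 CPM in livers. In the 4 left-out libraries, the one labelled liver of animal 2 held kidney identity genes at 8281 CPM, and those labelled kidney of animals 2, 11 and 12 held gut genes at 49780, 20980 and 21260 CPM. Adar itself stood at a median of 7.62 CPM in p150-negative and 10.9 CPM in p150-positive livers and at 15.7 and 18.0 CPM in kidneys. A difference of its effect between tissues was not called (-0.56 ± 0.67 SE, adjusted p = 0.90, edgeR), with a wide error, and counts summed over isoforms check no genotype. In whole tissue, fewer cells of a type and less RNA per cell cannot be told apart.

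More genes were called for the genotype in liver than in kidney, and the difference between the organs passed the test for 117 genes. Liver had 649 genes called up and 378 called down in the p150-negative group at an adjusted p under 0.05 by edgeR's quasi-likelihood test (7.92% of 12970 tested). In kidney 141 were higher and 85 lower (1.74%). Kidney had 5 p150-negative libraries, against 7 in liver, and held the shallowest library, so the 2 counts do not compare the organs. The difference between the liver and the kidney effect passed for 74 genes with a positive and 43 with a negative value, 0.914% of 12805 tested. All 117 differed by at least 1 on the log2 scale. The animals' own liver minus kidney differences did not overlap between genotypes for 59 of the 74 and 34 of the 43, against 2.65% of all tested genes. Levels did not overlap between genotypes for 3.59% of all genes in liver and 1.73% in kidney. Among the 74, 59 were called higher in liver and not in kidney, 6 were called lower in kidney and not in liver, 2 were called higher in both, 1 (Dnajc12) was higher in liver and lower in kidney, and 6 were called in neither tissue. Among the 43, 34 were called lower in liver and not in kidney, 3 higher in kidney and not in liver, 2 (Hsd3b1, Hsd17b2) lower in liver and higher in kidney, and 4 in neither.

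**Figure D1:**
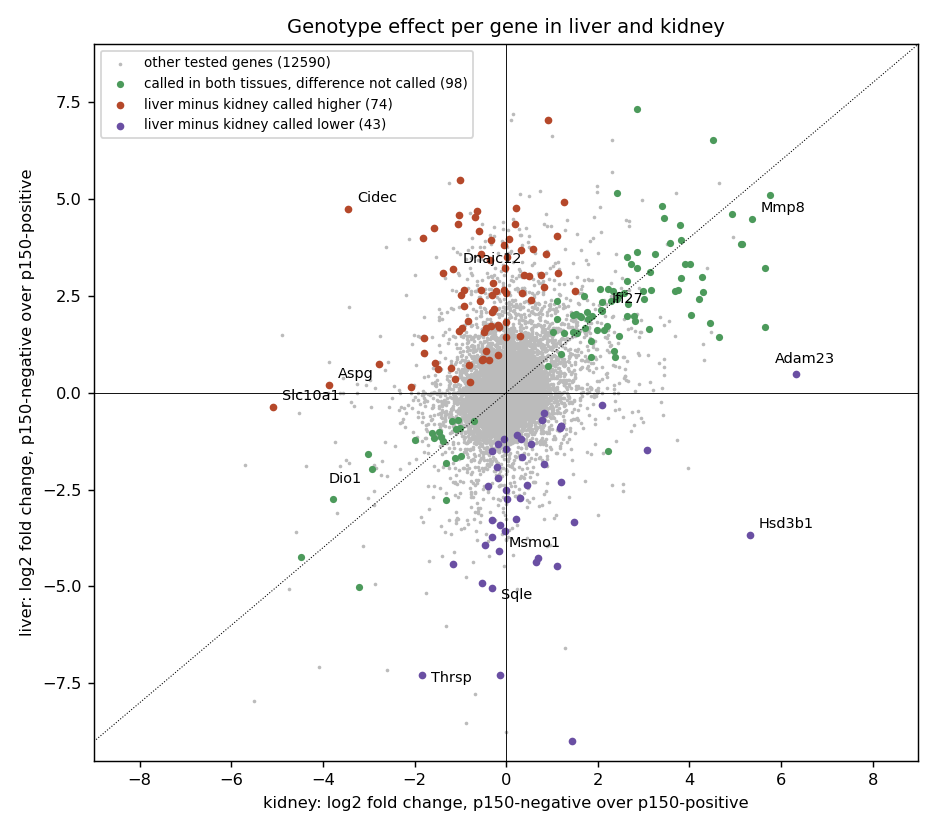
Genotype effect in kidney (horizontal axis) and liver (vertical axis) as log2 fold changes of p150-negative over p150-positive animals, 1 point per tested gene, with the dotted line marking equal effects. Genes whose difference between organs was called are 74 with a positive and 43 with a negative value. The liver estimate was the larger in absolute size for 62 of the 74 and 34 of the 43. Estimates had opposite signs in the organs for 53 of the 74 and 24 of the 43.

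Genes called in both organs mostly moved the same way. There were 105 of them, 10.2% of the liver calls and 46.5% of the kidney calls. Of these, 81 were higher in both organs, 20 were lower in both and 4 had opposite directions. Of the 105, 5 also had a called difference between the organs. The kidney effect of genes called higher in liver had a median of 0.48 beside 2.01 in liver. For genes called lower in liver the medians were -0.38 in kidney and -1.57 in liver. Genes called higher in kidney had medians of 2.56 in kidney and 1.66 in liver. Those called lower in kidney had -1.59 in kidney and -0.5 in liver. Each set was chosen by its calls in 1 organ, so these medians do not compare the organs. Over all tested genes the median was -0.02 in liver and -0.06 in kidney.

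Leaving out single animals moved these counts. Without animal 3, both of its libraries left out, the difference between organs was called for 237 genes (1.81% of 13064), and the 117 were all among them. The median difference over all tested genes was 0.17 with animal 3 and 0.00 without it. Leaving out another animal lowered the count, to 56 without animal 4, 58 without 9, 59 without 8, 65 without 6, 67 without 1, 69 without 7 and 73 without 10. In kidney alone, 136 genes were called without animal 8, against 226. With the 4 left-out libraries included, 6 genes were called, all lower and all among the 117.

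Dnajc12 had the clearest opposite effect. It encodes a co-chaperone of the aromatic amino acid hydroxylases and lies on GRCm38 chromosome 10 (63382443 to 63410576, plus strand; ENSMUSG00000036764). In p150-negative livers it stood at 114, 177 and 226 CPM (lowest, median, highest of 7), against 11.7, 21.7 and 26.5 CPM in 7 p150-positive livers. In kidney the order turned over: the 5 p150-negative animals stood at 109, 55.7, 124, 110 and 99.2 CPM, and the 7 p150-positive ones at 158, 209 and 280 CPM. The genotypes did not overlap in either organ. Each of the 5 paired p150-negative animals had more Dnajc12 in liver than in kidney (log2(CPM + 1) differences from 0.66 to 1.60), and each of the 6 p150-positive animals had less (-4.19 to -2.79). The liver effect was 3.20 ± 0.24 (SE; adjusted p = 4.38e-10, edgeR) and the kidney effect -1.16 ± 0.25 (0.00770). The difference between organs was 4.62 ± 0.36 (4.88e-06), and it ran from 4.45 to 4.76 when each animal was left out in turn. Over all labelled libraries its adjusted p was 0.126.

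Slc10a1, Aspg and Adam23 differed in kidney and not detectably in liver. Slc10a1 encodes NTCP, the sodium-coupled bile acid transporter of hepatocytes (chromosome 12, 80953183 to 80968705, minus strand; ENSMUSG00000021135). Its kidney level was 1.72, 0, 1.40, 0 and 1.23 CPM in the 5 p150-negative animals and 22.0, 43.2 and 50.1 CPM in the 7 p150-positive ones. Livers held 572, 863 and 1171 CPM in p150-negative and 870, 1213 and 1354 CPM in p150-positive animals, so the genotypes overlapped in liver and stood far apart in kidney. The kidney effect was -5.10 ± 0.44 (adjusted p = 7.35e-09, edgeR), the liver effect -0.37 ± 0.25 (0.475), and the difference 4.54 ± 0.52 (2.89e-04). Liver identity genes summed to 9.76, 37.3 and 532 CPM in p150-positive kidneys and to 109, 0, 8.75, 10.3 and 74.6 CPM in p150-negative ones, and these ranges overlapped. The part of liver RNA in the kidney values of Slc10a1 was not tested.

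Aspg encodes an asparaginase (chromosome 12, 112106679 to 112127559, plus strand; ENSMUSG00000037686). Kidneys of the 5 p150-negative animals held 1.14, 0, 2.45, 0 and 4.51 CPM, against 11.3, 27.2 and 54.7 CPM in the 7 p150-positive ones. In liver the medians were 170 and 170 CPM and the genotypes overlapped. The kidney effect was -3.87 ± 0.48 (adjusted p = 1.20e-05, edgeR), and the difference between organs 3.99 ± 0.58 (0.00167). Adam23, a catalytically inactive member of the ADAM family that binds integrins (chromosome 1, 63445891 to 63596276, plus strand; ENSMUSG00000025964), went the other way. The 5 p150-negative kidneys held 9.15, 7.43, 10.9, 8.91 and 9.84 CPM. The 7 p150-positive kidneys held 1 count in all, so the ratio of 198 has a counting interval from 34.8 to 7899, which covers counting error only. Livers expressed it in both genotypes, at 9.39, 13.5 and 22.2 CPM in p150-negative and 5.35, 10.9 and 14.9 CPM in p150-positive animals. Its liver and kidney effects differed by -5.98 ± 1.00 (0.00167).

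**Figure D2:**
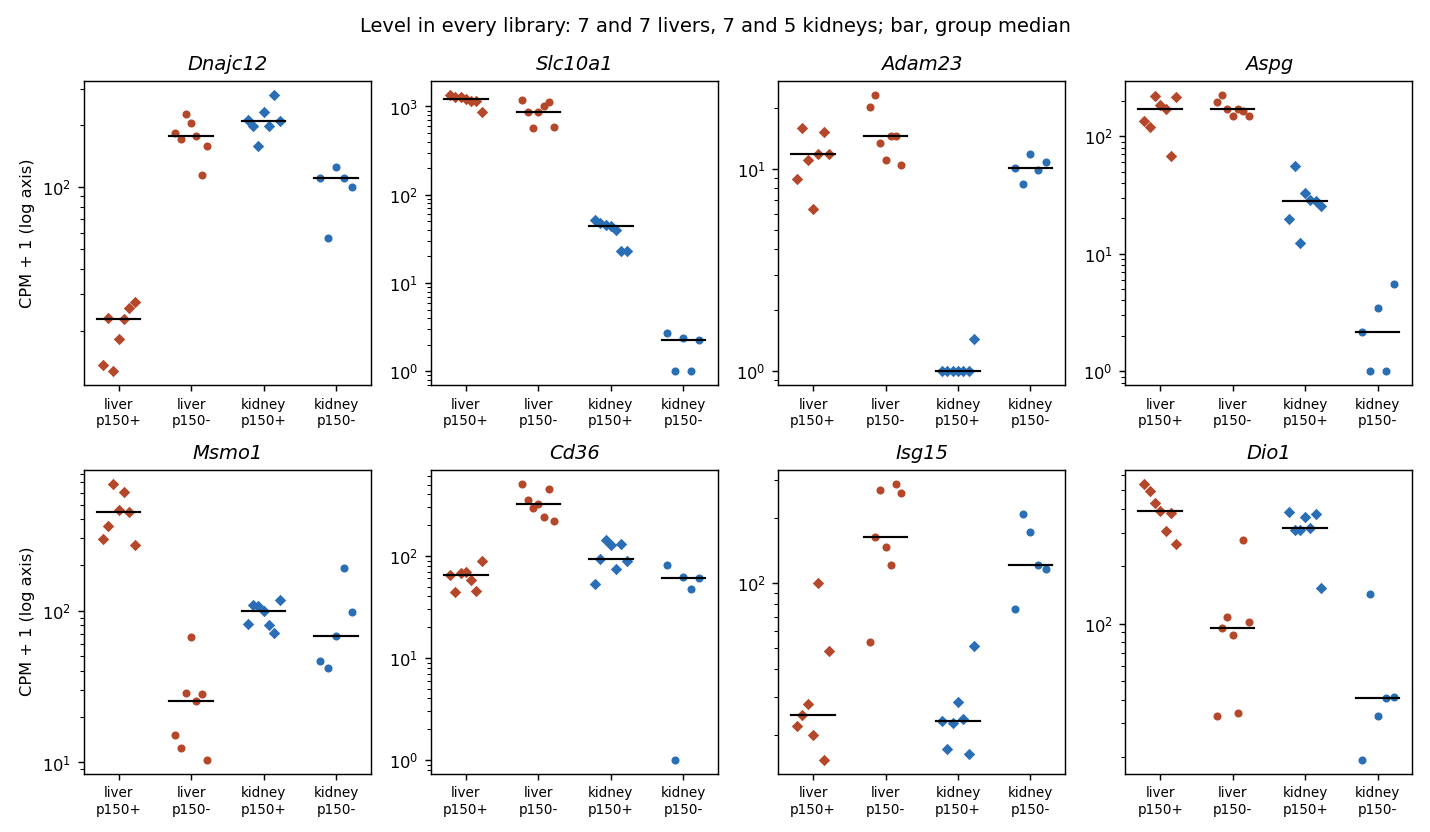
Level of 8 genes as CPM plus 1 on a log axis in 7 p150-positive and 7 p150-negative livers (red) and 7 p150-positive and 5 p150-negative kidneys (blue), 1 point per library, with the group median as a bar. Dnajc12 is higher in p150-negative livers and lower in p150-negative kidneys, Slc10a1, Adam23 and Aspg separate in kidney, Msmo1 and Cd36 in liver, and Isg15 and Dio1 move the same way in both organs.

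Cholesterol synthesis genes fell in p150-negative livers and were called in no kidney comparison. The list holds the enzymes from acetyl-CoA to cholesterol with further genes that the same sterol-sensing factor, SREBP2, controls, Insig1 and Stard4 among them. All 24 tested members (of 25 in the table) were lower in liver, beside 2.91% of all genes, with a median effect of -2.71. In kidney 0 of 24 were called by edgeR and 2 had an unadjusted p under 0.05, with a median of -0.25, and 20 of the 24 estimates lay below 0. The difference between organs was called lower for 11 of the 24 (background 0.336%), with a median of -2.25 beside 0.17 over all genes. Without animal 3 it was called for 22 (background 0.788%), with a median of -2.27 beside 0.00.

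Msmo1, the sterol C4-methyl oxidase (chromosome 8, 64718139 to 64733792, minus strand; ENSMUSG00000031604), stood at 9.39, 24.3 and 65.8 CPM in p150-negative and 270, 446 and 687 CPM in p150-positive livers. In kidney the 5 p150-negative animals held 45.7, 40.9, 67.6, 189 and 97.2 CPM and the 7 p150-positive ones 70.3, 98.0 and 116 CPM. The groups were apart in liver and overlapped in kidney, where the effect of -0.15 had a 95% interval from -0.88 to 0.58. Liver and kidney effects differed by -3.79 ± 0.39 (adjusted p = 1.24e-04, edgeR). Each of the 5 p150-negative animals had less Msmo1 in its liver than in its kidney (log2(CPM + 1) differences from -3.24 to -1.25), and each of the 6 p150-positive animals had more (1.21 to 2.80).

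Sqle, squalene epoxidase, a rate-limiting step after squalene, gave the largest difference of the pathway at -4.59 ± 0.65 (adjusted p = 0.00167, edgeR). Its levels were 0, 2.74 and 22.5 CPM in p150-negative and 58.7, 161 and 304 CPM in p150-positive livers, while kidneys held 26.9, 3.72, 28.4, 77.1 and 29.9 CPM against 31.6, 38.2 and 59.3 CPM. The liver values did not overlap, and the kidney values did. Upstream, Hmgcs1, which makes HMG-CoA, differed by -3.38 ± 0.43 (8.12e-04) and Idi1, which isomerizes isopentenyl diphosphate, by -3.98 ± 0.72 (0.00983; 0.0521 without animal 9). Downstream, Cyp51 differed by -3.56 ± 0.50 (0.00166) and Nsdhl by -3.84 ± 0.41 (1.56e-04), both enzymes of lanosterol demethylation. Msmo1, Sqle and Cyp51 were called under each of the 23 alternatives. Insig1, which holds the SREBP proteins in the endoplasmic reticulum, differed by -2.58 ± 0.50 (0.0170); it did not pass without animal 1 (0.0869), 7 or 8.

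**Figure D3:**
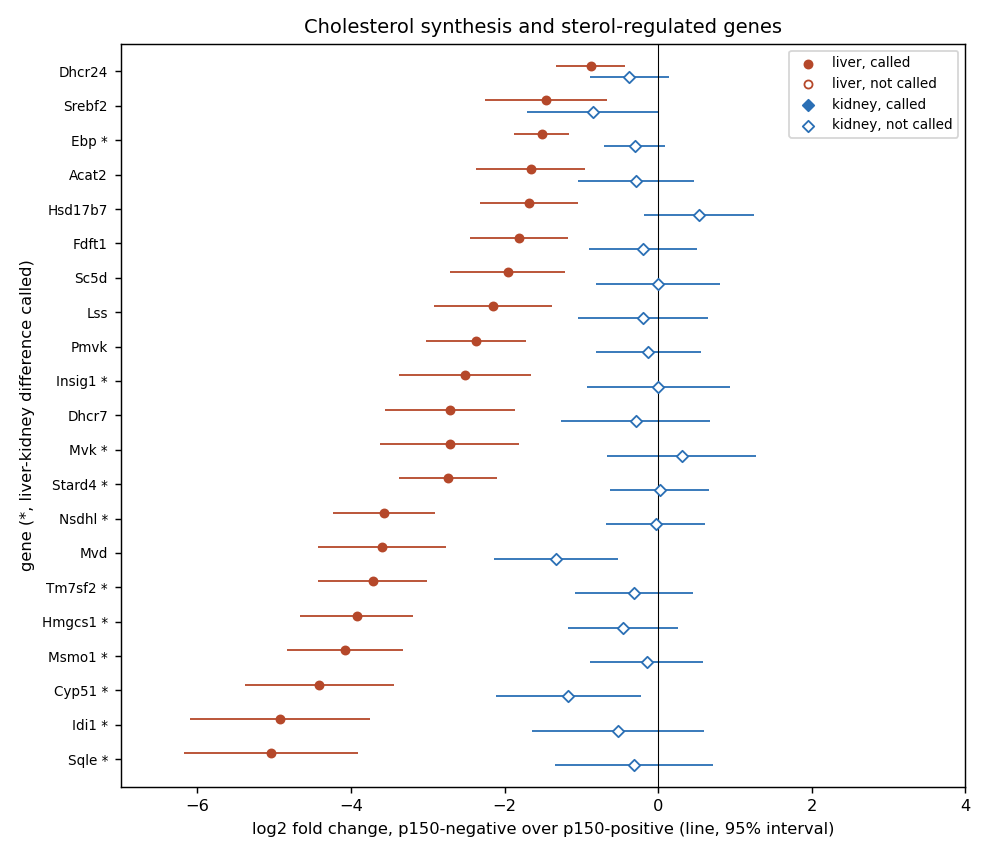
Log2 fold change of p150-negative over p150-positive animals in liver (red circles) and kidney (blue diamonds) for 21 of the 24 tested members of the cholesterol list, with 95% intervals; filled marks passed the test in that organ and an asterisk marks a called difference between organs. All 21 liver marks are filled and below 0, and all 21 kidney marks are open.

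The promoters of 2 of these genes are shown because the motifs of the factors known to act on them lie there. The 250 bases before the RefSeq gene start are given 5′ to 3′ on the gene's strand (build GRCm38.p6), with the motif in capitals: TCACNCCAC, a sterol response element, in Hmgcs1 (chr13:119690101-119690350, plus strand) and CCAATCA, the site of NF-Y, a factor that acts with SREBP2, in Msmo1 (chr8:64733579-64733828, minus strand).
Hmgcs1: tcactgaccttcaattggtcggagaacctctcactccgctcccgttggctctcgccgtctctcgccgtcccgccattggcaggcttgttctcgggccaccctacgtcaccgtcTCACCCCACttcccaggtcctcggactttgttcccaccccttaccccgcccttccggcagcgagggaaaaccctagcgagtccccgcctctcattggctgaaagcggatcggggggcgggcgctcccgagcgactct
Msmo1: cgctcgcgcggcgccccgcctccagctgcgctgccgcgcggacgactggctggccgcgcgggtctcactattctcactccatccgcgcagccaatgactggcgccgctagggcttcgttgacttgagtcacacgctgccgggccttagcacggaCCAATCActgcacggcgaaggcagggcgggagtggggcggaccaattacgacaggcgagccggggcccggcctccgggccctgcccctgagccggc
On either strand of that window, CCAATCA was found in 10 of the 17 cholesterol genes in the promoter table, against 8.38% of all 27025 genes. TCACNCCAC was found in 1 of the 17, against 1.22%. These are letter matches, and the motifs were chosen with the expression values known. By the GENCODE coordinates given above, Msmo1 starts further upstream, inside the window shown, and its marked motif lies within that gene.

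Fatty acid synthesis genes were lower in liver in 9 of 18 tested members and higher in 1 (median -1.74), against 1 lower in kidney (median -0.47). Over all genes 2.91% were lower in liver and 0.655% in kidney. Lower differences were called for 2 (0.336% of all genes), Thrsp and Elovl6. Thrsp, a lipogenic regulator, stood at 1.52, 3.17 and 31.7 CPM in p150-negative and 305, 1377 and 1927 CPM in p150-positive livers, and at 24.9, 14.9, 22.8, 25.4 and 21.3 CPM against 14.1, 29.5 and 286 CPM in kidneys. The genotypes were fully apart in liver and overlapped in kidney. The difference was -6.75 ± 0.83 (adjusted p = 4.90e-04, edgeR). Elovl6, a fatty acid elongase, differed by -2.09 (0.0296) and did not pass without animal 1, 4, 6, 7, 8, 9, 10 or 15 (0.127 without animal 8).

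Cd36 and Cidec had called differences of the opposite sign. Cd36, a fatty acid translocase, stood at 218, 325 and 510 CPM in p150-negative and 43.5, 64.6 and 87.5 CPM in p150-positive livers. Its kidney values were 79.7, 0, 60.6, 45.9 and 60.3 CPM against 51.5, 92.4 and 142 CPM, so the groups overlapped there. The difference was 3.59 ± 0.58 (adjusted p = 0.00491, edgeR). Cidec, a lipid droplet protein, stood at 10.0, 54.5 and 197 CPM in p150-negative and 2.32, 2.97 and 6.04 CPM in p150-positive livers. Its difference was 6.39 ± 1.12 (0.00860) and did not pass with the letter prefix of the animal identifier as a term (0.0501). In kidney Cidec was at 0 to 8.29 CPM in p150-negative and 0 to 131 CPM in p150-positive animals. The adipose list it belongs to summed to 0 to 101 CPM in p150-negative and 0.469 to 637 CPM in p150-positive kidneys, and the part of fat tissue in its kidney value was not tested.

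Interferon-stimulated genes had positive effects in both organs, and most differences between the organs did not pass the test. Of 53 tested members, 33 were called higher in liver (background 5.0%) and 29 in kidney (1.09%), 21 of them in both, and none was lower by edgeR in either organ. The median effect was 1.67 in liver and 1.64 in kidney. All 53 estimates were above 0 in liver, and 51 were in kidney. The difference between organs was called for 1 of 53, Ifi44, with a median of 0.19 beside 0.17 over all genes. An unadjusted p under 0.05 was found for 19 of the 53, against 1140 of all 12805 genes. Without animal 3 it was called for 4 with a positive and 2 with a negative value, and the median was -0.05.

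Isg15, a ubiquitin-like modifier (chromosome 4, 156199424 to 156200818, minus strand; ENSMUSG00000035692), showed the common pattern. Livers held 52.7, 163 and 288 CPM in p150-negative and 14.3, 23.7 and 99.8 CPM in p150-positive animals. Kidneys held 75.5, 208, 172, 121 and 116 CPM in p150-negative and 15.2, 22.2 and 50.5 CPM in p150-positive animals. The genotypes overlapped in liver, through p150-positive animal 12, and not in kidney. The effects were 2.35 ± 0.37 and 2.29 ± 0.39, and the 95% interval of their difference in the paired fit ran from -0.20 to 1.19. The interval was -0.27 to 1.09 for Irf7, the transcription factor that amplifies interferon production, -0.83 to 0.75 for Ifi27, and -1.30 to 0.21 for Usp18, which dampens the interferon receptor.

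Some interferon-stimulated genes had unlike estimates in the organs. Ifi44 rose by 2.64 ± 0.40 in liver and 1.51 ± 0.40 in kidney, a difference of 1.75 ± 0.36 (adjusted p = 0.0242, edgeR). It did not pass without animal 4, 6, 8 (0.0929), 9 or 16, with the letter prefix of the animal identifier as a term (0.0613), or with no animal block (0.539). Its p150-positive level was 2.38, 9.29 and 46.6 CPM in liver and 32.1, 42.9 and 97.9 CPM in kidney. Rsad2, viperin, an enzyme that makes a chain-terminating nucleotide, rose in liver (1.71 ± 0.39, 0.00364) from a p150-positive median of 45.5 to 134 CPM. In kidney its p150-positive median was already 234 CPM, and the 5 p150-negative animals held 141, 0, 327, 197 and 229 CPM, with an effect of -0.35 ± 0.42 (0.889). The difference was not called with animal 3, whose kidney held 0 counts (0.218), and was called without it (0.00107). Lgals3bp, a secreted glycoprotein, rose by 2.38 ± 0.27 in kidney and 0.92 ± 0.25 in liver. Its difference had an adjusted p of 0.183 by edgeR, and 0.00617 without animal 3. Dtx3l, a ubiquitin ligase, rose in kidney (2.46 ± 0.41) and stood at 0.26 ± 0.34 in liver. The Dtx3l difference between organs had an adjusted p of 0.0842 by edgeR, and 0.0282 without animal 3.

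**Figure D4:**
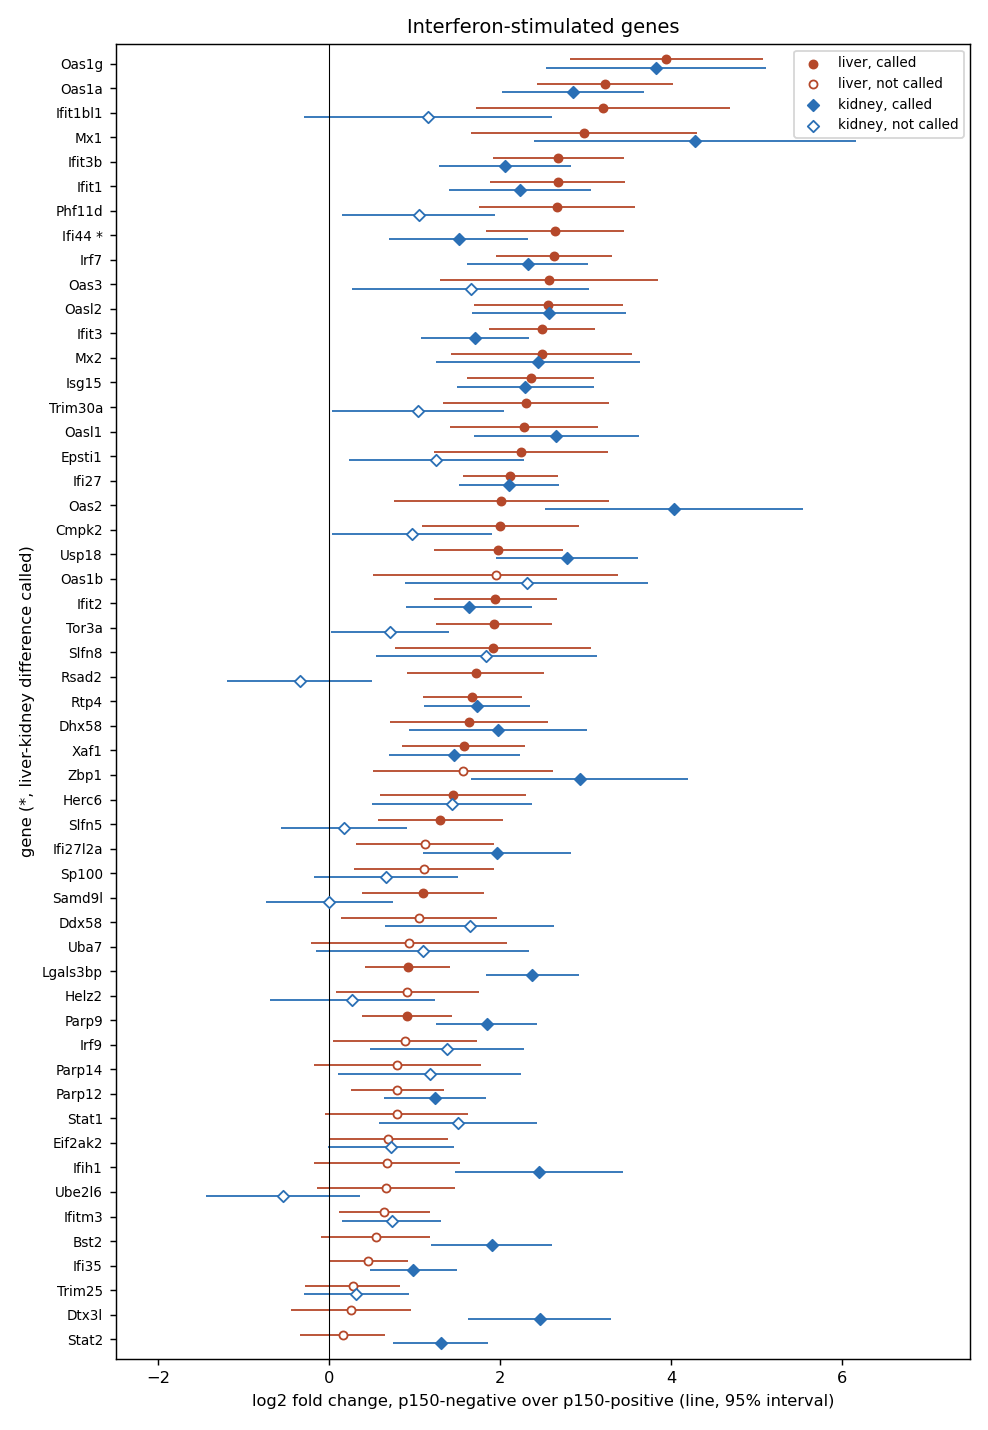
Log2 fold change of p150-negative over p150-positive animals in liver (red circles) and kidney (blue diamonds) for 53 interferon-stimulated genes, with 95% intervals; filled marks passed the test in that organ and the asterisk marks Ifi44, the gene with a called difference. All 53 liver marks and 51 of the kidney marks lie above 0. Rsad2 is among the genes that sit higher in liver, and Dtx3l and Lgals3bp are among those that sit higher in kidney.

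The promoters of Isg15, which rose in both organs, and Rsad2, which rose in liver, are shown as 2 members that hold the same motif. The capitals mark TTTC, any 2 bases and TTTC again, or its reverse complement as in Isg15, the core of the interferon-stimulated response element, in the 250 bases before the RefSeq start (GRCm38.p6; chr4:156200819-156201068 and chr12:26456453-26456702, both minus strand), with 3 overlapping matches in Isg15 and 1 in Rsad2.
Isg15: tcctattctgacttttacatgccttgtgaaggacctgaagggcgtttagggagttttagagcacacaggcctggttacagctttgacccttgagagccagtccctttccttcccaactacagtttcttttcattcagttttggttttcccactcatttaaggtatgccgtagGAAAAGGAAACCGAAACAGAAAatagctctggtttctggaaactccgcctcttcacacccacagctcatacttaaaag
Rsad2: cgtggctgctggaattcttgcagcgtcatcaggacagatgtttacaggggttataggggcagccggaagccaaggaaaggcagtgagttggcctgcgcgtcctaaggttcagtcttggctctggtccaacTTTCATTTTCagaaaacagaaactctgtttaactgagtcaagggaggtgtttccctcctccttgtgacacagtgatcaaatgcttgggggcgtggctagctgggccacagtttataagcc
On either strand of this window the motif was found in 14 of the 39 listed genes in the promoter table, against 3.46% of all genes.

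Genes that answer to interferon gamma were called more often in kidney, a contrast that was tested gene by gene. Of 18 tested GTPases and related genes, 5 were called higher in kidney (1.09% of all genes) and 1 in liver (5.0%), with medians of 1.82 and 0.79. The paired difference had a median of 0.18, beside 0.17 over all genes, with 9 of 17 values above 0, and a median of -0.25 without animal 3. All 18 kidney estimates were above 0. A lower difference was called for 1 of 17, Gm4951, an immunity-related GTPase, at -2.67 ± 0.55 (adjusted p = 0.0242, edgeR). It did not pass without animal 1, 6, 8 (0.0918), 9 or 10, or with the letter prefix of the identifier as a term (0.0742). Gm4951 stood at 24.6, 11.1, 61.6, 24.1 and 32.4 CPM in p150-negative and 1.71, 7.04 and 20.0 CPM in p150-positive kidneys, and at medians of 124 and 136 CPM in livers, where the genotypes overlapped. Of 20 MHC class I and antigen processing genes, 6 were called higher in kidney and 5 in liver, with medians of 0.82 and 0.54, and the difference was called for none by edgeR, with all 11 animals or without animal 3, and 4 had an unadjusted p under 0.05. B2m rose in kidney (1.24, 0.00282) and stood at 0.33 in liver (0.484), with a difference of -0.95 (0.369).

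Inflammatory genes were called more often in liver, a count that does not test the difference. Of 32 acute phase genes 19 were called higher in liver (median 1.68; 5.0% of all genes) and 3 in kidney (median 1.53; 1.09%), and the difference was called for none by edgeR (median 0.94; 8 with an unadjusted p under 0.05). Lcn2, lipocalin 2, which binds iron siderophores, stood at 1820, 2488 and 5254 CPM in p150-negative and 23.9, 66.5 and 234 CPM in p150-positive livers. In kidney it stood at 85.7, 0, 61.6, 45.9 and 130 CPM against 0.938, 8.79 and 36.2 CPM. Its effect was 5.15 ± 0.64 in liver and 2.41 ± 0.63 in kidney, and the difference of 2.84 ± 0.85 did not pass (adjusted p = 0.180, edgeR; 0.109 without animal 3). C4b, a complement component, and Serpina3g, a protease inhibitor, were called higher in kidney (4.32 ± 0.63 and 4.46 ± 0.71) and not in liver (0.84 ± 0.33 and 1.56 ± 0.56). Their differences were called without animal 3 (0.0411 and 0.0366) and not with it (0.151 and 0.326).

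Markers of myeloid cells moved with these genes. Of 17 neutrophil markers 16 were called higher in liver and 7 in kidney, all 7 of them in both, where 5.0% and 1.09% of all genes were. Their summed level was 2612 to 6782 CPM in p150-negative and 102 to 394 CPM in p150-positive livers, and 266 to 408 against 28.7 to 144 CPM in kidneys, without overlap in either organ. Lcn2, counted above as an acute phase gene, is also in this list. In p150-negative livers Lcn2 alone had a median of 2488 CPM, beside 3179 CPM for the sum, and the sum without Lcn2 was not tested. The difference between organs was called by edgeR for 0 of the 13 neutrophil markers tested for it (median 0.58), and 3 had an unadjusted p under 0.05. Mmp8, a neutrophil collagenase, rose by 4.48 ± 0.55 in liver and 5.36 ± 0.81 in kidney. Among 21 genes of macrophages and monocytes, liver had 15 called higher and kidney 3, against the same shares of all genes. Cd14, a co-receptor for lipopolysaccharide, had the called difference of the list: 23.4, 58.3 and 118 CPM against 2.59, 3.57 and 7.12 CPM in liver, and 15.4, 78.0, 17.2, 10.7 and 40.2 CPM against 3.85, 11.9 and 19.7 CPM in kidney. The difference was 3.22 ± 0.62 (adjusted p = 0.0160, edgeR), and it did not pass without animal 1, 4, 8 (0.0767) or 9. The part of myeloid cells in the acute phase and interferon values was not tested.

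Lepr, Igfbp1, Hmox1, Btg2, Ly6d and Atp11a rose in liver and were not called in kidney. Lepr, the leptin receptor, stood at 81.0, 192 and 758 CPM in p150-negative and 6.56, 15.6 and 40.5 CPM in p150-positive livers, and at 21.4, 85.4, 25.2, 18.7 and 22.5 CPM against 16.1, 31.6 and 57.2 CPM in kidneys. The groups did not overlap in liver and did in kidney. The difference was 4.09 ± 0.54 (adjusted p = 0.00100, edgeR). Igfbp1, a binding protein that restrains IGF1, stood at 693, 1536 and 4977 CPM against 21.3, 166 and 374 CPM in liver, with a difference of 3.98 ± 0.73 (0.0119). It did not pass with no animal block (2.71, 0.174) or by voom with the animal as a random effect (0.156). Igf1 itself fell in liver (-2.12 ± 0.35) and stood at -1.10 ± 0.39 in kidney (0.205), with a difference of -0.76 (0.770).

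Hmox1, heme oxygenase, which degrades heme and is induced by oxidative stress, stood at 88.3, 207 and 277 CPM in p150-negative and 4.25, 27.7 and 67.5 CPM in p150-positive livers. Kidneys held 40.3, 22.3, 66.9, 91.3 and 36.9 CPM against 6.16, 48.1 and 137 CPM, so the genotypes separated in liver and overlapped in kidney. The difference was 3.21 ± 0.56 (adjusted p = 0.00860, edgeR). Btg2, an antiproliferative immediate early gene and p53 target, differed by 1.99 ± 0.32 (0.00499). Gpc3, a heparan sulfate proteoglycan of the fetal liver, rose in both organs, by 3.09 ± 0.30 in liver and 1.14 ± 0.30 in kidney, with a difference of 2.05 ± 0.42 (0.0257), which did not pass without animal 1 (0.0941), 4, 7, 8, 9 or 15. In p150-positive animals Gpc3 stood at 6.95, 18.4 and 41.1 CPM in liver and 82.1, 99.6 and 141 CPM in kidney. Ly6d, a GPI-anchored surface protein, and Atp11a, a phospholipid flippase, differed by 5.24 ± 0.73 (0.00155) and 4.00 ± 0.61 (0.00295).

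Some genes with more RNA in kidney than in liver had a called positive difference. Napsa, the aspartic protease of proximal tubule and lung, stood at 1.88, 6.99 and 12.7 CPM in p150-negative and 0, 0.517 and 1.25 CPM in p150-positive livers. Kidneys held 2463, 3499, 2307, 2299 and 2005 CPM against 1785, 2373 and 2821 CPM. The livers did not overlap and the kidneys did, and the difference was 3.91 ± 0.71 (adjusted p = 0.00943, edgeR). Miox, which starts inositol breakdown, stood at 6.51, 10.3 and 17.7 CPM against 1.63, 3.39 and 5.69 CPM in liver and at 1006, 1241, 1532, 2119 and 3075 CPM against 2391, 2796 and 3781 CPM in kidney, with a difference of 2.77 ± 0.55 (0.0210), which did not pass without animal 1, 4 (0.0621) or 6. Spink1, a trypsin inhibitor, and Npnt, an integrin ligand of the kidney basement membrane, both chosen after their values were seen, differed by 3.66 ± 0.63 (0.00813) and 4.77 ± 0.92 (0.00983). Npnt levels overlapped between genotypes in liver, and the animals' liver minus kidney differences overlapped for Spink1. In these p150-negative livers the kidney identity genes Umod, Slc34a1, Kap and Aqp2 summed to 0 to 9.63 CPM, with no count in 3 of 7. Over the proximal tubule list, 1 of 31 had a called positive and 1 a called negative difference, against 0.578% and 0.336% of all genes.

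Other genes were lower in liver without a call in kidney. Nrep, a small neuronal regeneration-related protein, stood at 2.03, 20.1 and 29.8 CPM in p150-negative and 97.5, 115 and 374 CPM in p150-positive livers, and at medians of 142 and 132 CPM in kidneys, with overlap there and none in liver. The difference was -3.62 ± 0.42 (adjusted p = 2.95e-04, edgeR). Ugt2b37, a glucuronosyltransferase of a family with near-identical members, had 0 counts in all 7 p150-negative livers, at least 97.2-fold lower than in p150-positive livers (floor of 3 counts over the group; counting error only). Its kidney level was 0 to 9.80 CPM in p150-negative and 0 to 3.95 CPM in p150-positive animals. Mmd2, a membrane receptor of the progestin and adipoQ family, differed by -4.49 ± 0.72 (0.00444). Scnn1a, the alpha subunit of the epithelial sodium channel, differed by -3.05 ± 0.60 (0.0191). It did not pass without animal 7, 8 (0.0864) or 9, or with the letter prefix of the identifier as a term (0.0711).

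Both steroid enzymes with opposite calls were at low levels in most kidneys. Hsd3b1, a 3-beta-hydroxysteroid dehydrogenase, fell in liver (-3.68 ± 0.82) and was called higher in kidney (5.32 ± 1.39). The 5 p150-negative kidneys held 0.858, 0, 28.0, 0.446 and 0.410 CPM, so animal 8 held nearly all of the counts, and that library also held adrenal genes at 98.7 CPM, against at most 9.02 CPM in the other 11 kidneys. Without animal 8 the difference was -8.32 (adjusted p = 0.0157, edgeR) beside -10.15 with it. Kidneys then held 0 to 0.858 CPM in p150-negative and 0 to 0.770 CPM in p150-positive animals, both near 0. The gene was tested in 7 of the 11 fits that left out an animal. Hsd17b2, which inactivates estradiol and testosterone, fell in liver (-1.47 ± 0.41) and was called higher in kidney (3.08 ± 0.56), where it stood at 58.0, 0, 4.20, 8.47 and 6.56 CPM against 0, 1.41 and 3.85 CPM. The difference was -3.58 ± 0.78 (0.0322) and did not pass without animal 4 (0.0918), 6, 7, 8, 9, 13 or 15. Ugt2b5, another member of the Ugt2b family and chosen after its values were seen, was lower in liver (-1.51 ± 0.38) and higher in kidney (2.23 ± 0.58), with a difference that did not pass (0.0519).

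Outside the interferon response, Dio1, Rbm3 and Cdkn1a changed in the same direction in both organs. Dio1, the deiodinase that activates thyroid hormone, fell in both: 31.9, 94.4 and 275 CPM in p150-negative against 259, 388 and 542 CPM in p150-positive livers, and 18.3, 141, 31.9, 39.7 and 40.2 CPM against 152, 317 and 382 CPM in kidneys. The kidneys did not overlap, and 1 liver of each genotype did. The effects were -1.96 ± 0.35 and -2.93 ± 0.43, and the interval of the difference ran from -0.06 to 1.42. Rbm3, a cold-inducible RNA-binding protein, rose by 1.55 ± 0.19 in liver and 1.26 ± 0.20 in kidney, without overlap in either organ (difference 0.33 ± 0.30). Cdkn1a, which encodes the p53-induced inhibitor p21, had effects of 1.97 ± 0.42 in liver and 1.87 ± 0.44 in kidney, both called.

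Genes of the fixed set gave further values. Ifit1, an interferon-induced RNA-binding protein, rose by 2.67 ± 0.39 in liver and 2.23 ± 0.40 in kidney, and Cxcl10, a chemokine for T cells, by 2.63 ± 0.48 and 3.69 ± 0.56. Zbp1, the other mammalian protein with a Z-nucleic-acid-binding domain, rose in kidney (2.93 ± 0.62, adjusted p = 0.00679, edgeR) and stood at 1.57 ± 0.51 in liver (0.0571); the interval of its difference ran from -1.72 to 0.60. Eif2ak2, the RNA-activated kinase PKR, was called in neither organ (0.69 ± 0.34 and 0.72 ± 0.36). Asns, asparagine synthetase and an ATF4 target, rose in liver (3.38 ± 0.45) and stood at 1.14 ± 0.46 in kidney, with a difference of 1.57 ± 0.51 that did not pass (0.237). Slc5a2, the glucose transporter SGLT2 of the proximal tubule, fell in kidney (-1.92 ± 0.32), and Cyp24a1, which inactivates vitamin D, rose there (2.08 ± 0.35). Fkbp5, a glucocorticoid-responsive co-chaperone, and Mt2, a metallothionein, were called in neither organ and had no called difference.

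**Figure D5:**
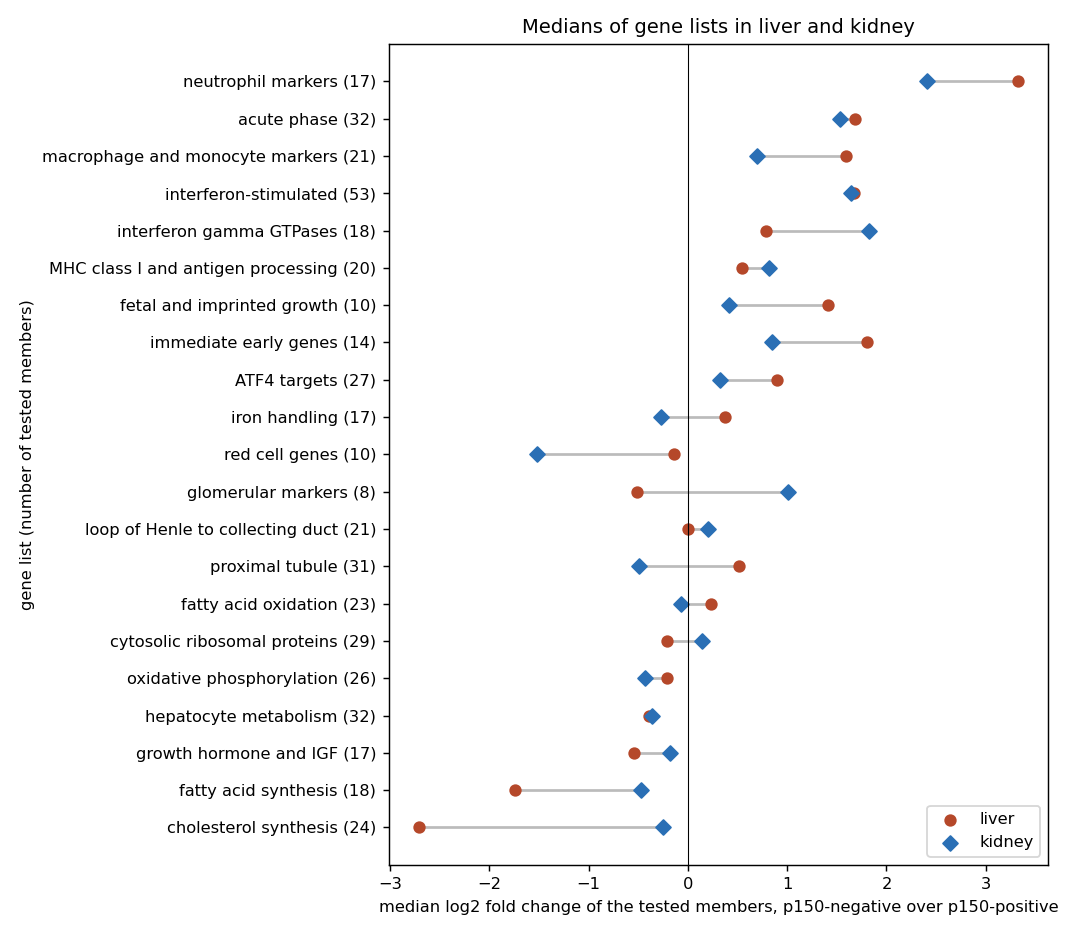
Median log2 fold change of p150-negative over p150-positive animals among tested members of 21 gene lists in liver (red circles) and kidney (blue diamonds), with the number of tested members in parentheses. The marks nearly coincide for interferon-stimulated genes (1.67 and 1.64) and lie far apart for cholesterol synthesis (-2.71 and -0.25).

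Across lists, the liver and kidney medians also stood apart for red cell genes (-0.14 in liver, -1.52 in kidney). By edgeR 4 of 10 members were called lower in kidney and 0 of 10 in liver. In liver 0 also had an unadjusted p under 0.05. The difference between organs was called for 0 of the 9 members tested for it (median 1.14), and 3 had an unadjusted p under 0.05. Hemoglobin and other red cell genes summed to 964 to 3249 CPM in p150-negative and 3764 to 10390 CPM in p150-positive kidneys. Exocrine pancreas genes, at 37.2 to 228 against 253 to 519 CPM, separated the same kidneys. Only 1 of the 12 genes of that list, Cela1, passed the expression filter, and Cela1 alone did not overlap between genotypes in kidney (effect -1.2). The part of neighbouring tissue or blood in the kidney values was not tested. The difference was called by edgeR for none of 26 oxidative phosphorylation genes (median 0.12), none of 29 cytosolic ribosomal protein genes (-0.38), none of 25 cell cycle genes (0.46), none of 26 ATF4 targets (0.69) and none of 21 chaperones of the endoplasmic reticulum (0.12). An unadjusted p under 0.05 was found for 4 of the ATF4 targets and 0 of the other 4 lists. Of the 12805 genes tested, 1140 had an unadjusted p under 0.05.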

How the data were processed

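RNA-seq was run on frozen liver, kidney and cerebellum, with NexteraXT libraries per the labels' protocols. The authors deposited raw read counts per gene. STAR 2.4.2a, HTSeq 0.4.1 and the build GRCm38 (mm10) are named in the submitters' processing notes, while the annotation release and strand setting are not given in the sources used here. Of 53471 rows, 6 repeated identifiers with identical counts were used once. Entries without a symbol held 0.267% of counts. Coordinates are from GENCODE M21.

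The difference between organs was fitted with edgeR 4.0.16 (R 4.3.3), quasi-likelihood, TMM scaling and filterByExpr (minimum count 10, total 15), with animal as a block and a genotype effect in each tissue, over 22 libraries. Effects within a tissue came from 1 fit of 4 group means over 26 libraries. Adjusted p-values are Benjamini-Hochberg over all tested genes, called under 0.05. The labels give both organs of an animal, which sets the pairing; liver and kidney deviations of an animal correlated at -0.014 to 0.313. Alternatives used DESeq2 1.42.0, voom in limma 3.58.1, other scalings, filters and covariates, and leaving out each animal. One covariate, by tissue, was the letter prefix of the animal identifier (P, AC, AA or AS), whose meaning the sources used here do not give. Named genes were up to 4 members of each list by the smallest p, the 12 largest differences in each direction among genes of at least 5 CPM in each tissue and 5 among others, up to 12 with opposite and 12 with shared effects, and a fixed set; Spink1, Npnt, Rsad2, Serpina3g, Insig1 and Ugt2b5 were added after their values were seen. Members and lists were chosen with earlier results of these data known. Counting intervals and floors cover counting error only. Some members of the cholesterol list are counted but not reported singly here.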

Additional observations from a re-analysis of the deposited data

Results flagged for a closer look

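In 82 groups of animals, the liver minus kidney difference on the log2(CPM + 1) scale was checked for 1 animal far from the others, which chance gives in about 1 of 20 groups. Of the 12 such values, 5 came from p150-negative animal 3, whose kidney was the shallowest library: Dnajc12 (1.60), Cd36 (8.46), Cidec (7.63), Lcn2 (10.83) and Igf1 (8.14). Animal 1 stood apart for Lepr (5.08) and Hao2 (-9.76), animal 16 for Msmo1 (-3.24) and animal 9 for Hmgcs1 (-2.34), all p150-negative. Among p150-positive animals, animal 13 stood apart for Aspg (1.26), animal 15 for Irf7 (-1.24) and animal 6 for Cxcl10 (2.89).

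The genotype effect differed between liver and kidney for 117 genes by the test of the difference in edgeR. Among called genes with opposite signs in the organs, the 12 with the smallest p that also had an unadjusted p under 0.05 in each organ were named. The difference was 4.62 for Dnajc12, -10.15 for Hsd3b1, -4.49 for Mmd2, 3.50 for Cgref1, 3.59 for Cd36, 6.39 for Cidec, -9.85 for Ugt2b37, 5.34 for Trpc1, 2.77 for Tmem86a, 3.78 for Slc51b, 2.92 for Dmpk and 2.77 for Miox. For Hsd3b1, animal 8 held nearly all of the p150-negative kidney counts. Slc51b encodes a subunit of a bile acid exporter, Dmpk a kinase and Trpc1 a cation channel. The call was lost without animal 1 for Trpc1 (adjusted p = 0.0587), without animal 4 for Slc51b (0.0575), without animal 1 (0.0516) or 8 for Tmem86a, and without animal 1 (0.0587), 8 or 9 for Dmpk. With the letter prefix of the animal identifier as a term it was lost for all 3 of Trpc1, Slc51b and Dmpk.

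Libraries that entered no comparison held RNA of other organs. In the one labelled liver of animal 2, kidney identity genes summed to 8281 CPM, against at most 9.63 CPM in the livers used. Adrenal genes summed to 2716 CPM there, against at most 4.17 CPM. Exocrine pancreas genes, at 72.94 CPM, were close to the highest liver used (70.3 CPM). Gut genes summed to 49780, 20980 and 21260 CPM in those labelled kidney of animals 2, 11 and 12, against at most 151 CPM in the kidneys used. Pancreas genes summed to 10360 CPM in the kidney library of animal 2 and 24640 CPM in that of animal 12, against at most 519 CPM.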

How the results depend on the processing

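The difference between organs was called positive for 74 and negative for 43 genes. It was called for 110 and 85 with no replicate block, 191 and 103 by voom with the animal as a random effect, 211 and 91 with no expression filter, and 232 and 110 by DESeq2. Over all labelled libraries 0 and 6 were called, Msmo1, Sqle and Cyp51 among them. Without the shallow libraries (the kidney of animal 3 and the liver of animal 16), 75 were negative. Leaving out 1 animal at a time gave 35 to 134 positive and 19 to 103 negative. In liver, 649 higher and 378 lower became 403 and 244 where genes needed at least 5 CPM in each tissue. The lower count was 133 over all labelled libraries and 577 without the shallow libraries, and leaving out 1 animal gave 511 to 804 higher and 283 to 517 lower. In kidney, 141 higher and 85 lower became 271 and 178 by DESeq2, 46 and 37 when each tissue was fitted alone, and 14 and 3 over all labelled libraries. With at least 5 CPM in each tissue 92 were higher, and leaving out 1 animal gave 81 to 153 higher and 50 to 85 lower. The other alternatives stayed within 1.5 times of each count, and none of the 59 named genes with a called difference changed sign, while some named genes without a call, such as Ifit1, Ifi27 and Eif2ak2, had estimates on both sides of 0. With the letter prefix of the animal identifier by tissue as a term, 79 of the 117 calls were kept. Of the 59 named genes with a called difference, 25 were lost only over all labelled libraries and 29 without at least 1 animal. With 269213 counts in the shallowest kidney, genes of a few CPM had 0 or few counts there. Some genes with higher levels also had 0 counts in it: Cd36, at a median of 60.3 CPM over p150-negative kidneys, Rsad2 and Lcn2. The cause of these shifts was not tested.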
